A study of Mus musculus with 61 samples.

Results

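Forebrain and midbrain of the mouse were compared late in development, in 4 forebrain libraries and 4 midbrain libraries, which are 8 of the 61 RNA sequencing libraries of the series. The members were chosen by tissue and stage alone: each region has 2 libraries from late gestation, embryonic stage E16.5, and 2 from the day of birth (P0), and the stage was read from the header of each column of the deposited table. Tissue and stage are the only attributes used to form the groups, and no treatment, allele, strain or sex enters them. The labels give bulk tissue, so each library mixes all cell types of the dissected region. They call the libraries replicates without naming separate animals. The p-values below rest on the spread between libraries of the same tissue and stage, pooled over all 61 libraries of the series. This spread may be technical in part. Values are TPM, a level per transcript length scaled to the same total in each library, and differences are log2 fold changes of TPM + 1, forebrain against midbrain, with positive values for higher levels in forebrain. A filter that asked for 1 TPM in 2 or more of the 61 libraries kept 18655 genes, and the 15725 protein-coding ones are described.

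The late fetal forebrain library holds cerebral cortex, the basal ganglia and, depending on the cut, diencephalon. Cortical projection neurons arise from dorsal progenitors that express Emx1 and pass through an Eomes-positive intermediate progenitor, whereas ventral progenitors that express Dlx genes give rise to GABAergic interneurons and striatal neurons. The midbrain is patterned from the isthmus, a signalling centre at its border with the hindbrain, and comprises the tectum dorsally and the tegmentum ventrally, which contains dopamine neurons. By late gestation most midbrain neurons have been born, while the cortex is still producing neurons.

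In forebrain 14854 to 15299 genes per library reached 1 TPM, and in midbrain 15145 to 15257; TPM values keep no read counts, so depth is unknown. For 1 of the 2 midbrain libraries at each stage the column header and the sample title name different stages, E16.5 in one and P0 in the other. By header, the midbrain P0 pair correlated across genes at Pearson r = 0.9952 and the E16.5 pair at 0.9918, against 0.9721 to 0.9792 for midbrain pairs of different stages. Each header pair also shares a library set, given below, so these correlations cannot decide which stage label is right. The header was followed. The average over both stages has the same estimate under either reading; values at a single stage do not. The libraries also fell into sets by the level of Rps27, a ribosomal protein gene with many near-identical copies: both midbrain P0 libraries stood at 451 and 553 TPM, whereas the other 6 stood between 7.56 and 136 TPM. At P0 library set and region cannot be told apart in these 8 libraries. Within midbrain, library set and stage cannot be told apart either, which applies to every midbrain change from E16.5 to P0 given below. E16.5 compares libraries of one set. Of the genes called over both stages, described below, 243 of 276 higher in forebrain and 377 of 387 higher in midbrain were also called at E16.5. Of all genes, 2.68% and 4.82% were called in these directions at E16.5. The E16.5 libraries are part of the average over both stages, so this overlap is partly built in and is no separate check. Hindbrain at P0 has 1 library of each set, and the difference between these is given where it bears on a result.

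Region labels were set against marker lists, which were chosen with earlier results of these data known. The cortical projection neuron list summed to 1627 to 2187 TPM per library in forebrain and 721 to 916 TPM in midbrain, and the tectal and midbrain GABAergic selector list summed to 197 to 271 TPM in forebrain and 756 to 1132 TPM in midbrain. In hindbrain that selector list summed to 801 to 935 TPM, within its midbrain range, so it does not set midbrain apart from hindbrain. Not every list separated forebrain from midbrain. The ventral forebrain GABAergic list summed to 626 to 774 TPM in forebrain and 409 to 691 TPM in midbrain. The striatal projection neuron list summed to 478 to 673 TPM in forebrain and 363 to 488 TPM in midbrain. Hox genes, which mark hindbrain and spinal cord, were close to 0 in both regions: 17 of the 20 members of the hindbrain and Hox list were below 1 TPM in all 8 libraries. Hoxb3 had 0 to 0.12 TPM in forebrain and 0.14 to 0.26 TPM in midbrain, against 63.1 and 63.1 TPM at E16.5 and 33.2 and 39.2 TPM at P0 in hindbrain. The midbrain libraries were not equal in forebrain markers. Tbr1, a transcription factor of cortical projection neurons, had 3.06 and 8.14 TPM at E16.5 and 11.4 and 3.03 TPM at P0 in midbrain, so replicate 3 at E16.5 and replicate 1 at P0 were above their partners, and Neurod6 had the same order. Among forebrain libraries, Tcf7l2, a transcription factor of thalamus and dorsal midbrain, had 42.0 and 6.76 TPM at E16.5 and 135 and 63.4 TPM at P0. In bulk samples fewer cells of a type and less RNA per cell cannot be told apart, and the part that dissection plays in the values below was not tested.

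Averaged over both stages, 663 of 15725 protein-coding genes (4.22%) differed between the regions at a limma adjusted p under 0.05 and a log2 fold change of 1 or more in either direction, with 276 higher in forebrain (1.76%) and 387 higher in midbrain (2.46%). The median log2 fold change over all genes was -0.01. The shares of 1.76% and 2.46% are the background for each list count over both stages given below. Telencephalic transcription factors led the forebrain side, and selector genes of tectal and midbrain GABAergic neurons led the midbrain side. The 4 forebrain libraries all lay above the 4 midbrain libraries for 923 genes (5.87%) and all below for 1652 (10.5%).

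**Figure D1:**
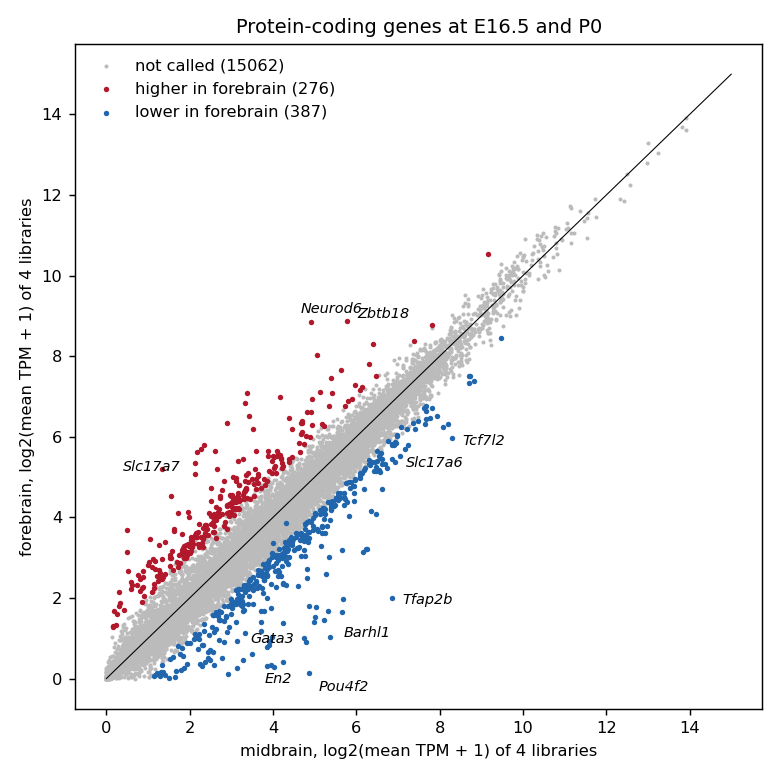
Mean level of each protein-coding gene in midbrain (x axis) and forebrain (y axis), as log2(mean TPM + 1) of 4 libraries each; red and blue points are the 276 genes called higher and the 387 called lower in forebrain, and the line marks equal levels. Neurod6 and Zbtb18 lie far above the line, and Tfap2b and Pou4f2 far below it.

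Of the 20 tested telencephalic patterning genes, 5 were higher in forebrain and 1 lower, with a median of 0.31. Sp8, a zinc finger factor of the cortical patterning centres, differed by 1.52, and Wnt7b, a Wnt ligand of cortical neurons and progenitors, by 1.503. The single lower member was Lef1, a nuclear effector of Wnt signalling that is also a thalamic gene, at -2.10.

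Cortical projection neuron genes held the factor with the largest forebrain difference, Neurod6. Of 30 tested members 15 were higher in forebrain and 3 lower, against 1.76% and 2.46% of all genes, and the list's median was 1.05. Neurod6, a basic helix-loop-helix factor of newborn and mature cortical pyramidal neurons (chr6:55677822-55681263, minus strand, mm10), had 507 and 599.7 TPM at E16.5 and 370.5 and 367 TPM at P0 in forebrain, against 16.2 and 39.6 TPM at E16.5 and 46.9 and 14.2 TPM at P0 in midbrain. No library of one region reached the other, and the difference was 4.08 ± 0.24 (SE, adjusted p = 6.5e-16).

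Tbr1, the factor of deep-layer and subplate neurons, had 104 and 102 TPM at E16.5 and 43.8 and 70.3 TPM at P0 in forebrain, against 3.06 and 8.14 TPM at E16.5 and 11.4 and 3.03 TPM at P0 in midbrain, a difference of 3.55 ± 0.33 (SE, adjusted p = 4.0e-11). Fezf2, which specifies corticospinal neurons, differed by 3.41, and Neurod2, a close relative of Neurod6, by 3.21. The dorsal progenitor factor Emx1 and the intermediate progenitor factor Eomes differed by 3.04 and 3.04. Eomes levels in forebrain were 68.5 and 63.9 TPM at E16.5 and 10.9 and 16.3 TPM at P0, so the forebrain P0 libraries held much less than those at E16.5, yet stayed above every midbrain library. Zbtb18, a zinc finger repressor of cortical neuron differentiation, had 424 to 498 TPM in forebrain and 35.7 to 84.5 TPM in midbrain. Its difference was 3.17 ± 0.12 (SE, adjusted p = 1.1e-20). The 10 largest forebrain differences also held genes outside this list: Sla, an adaptor protein, at 3.69, Tiam2, an exchange factor for Rac, at 3.47, and Ppp1r1b, described with the striatum below.

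The 3 members of the cortical list that were lower in forebrain are also expressed by neurons outside cortex. Foxp2, a forkhead factor found in deep cortical layers, striatum, thalamus and midbrain, had 19.8 to 25.4 TPM in forebrain and 52.6 to 65.0 TPM in midbrain and differed by -1.34. Rasgrf2 differed by -1.27 and Zfpm2 by -1.01; the call of Zfpm2 was lost under 8 of 20 alternatives, over all of which it ranged from -1.11 to -0.89, and 4 of these left out a single library: forebrain E16.5 replicate 2, forebrain P0 replicate 2, midbrain E16.5 replicate 3 or midbrain P0 replicate 2.

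The promoters of 4 of the genes that differed most are shown here because they hold the same E-box, the word CAGATG (read as CATCTG on the other strand), which NeuroD factors are known to bind, on both sides of the comparison. Each run is the 250 bases before the first RefSeq start listed for the gene (GRCm38.p6), 5′ to 3′ on the strand of the gene, with the E-box in capitals.
Neurod2 (chr11:98329646-98329895, minus strand): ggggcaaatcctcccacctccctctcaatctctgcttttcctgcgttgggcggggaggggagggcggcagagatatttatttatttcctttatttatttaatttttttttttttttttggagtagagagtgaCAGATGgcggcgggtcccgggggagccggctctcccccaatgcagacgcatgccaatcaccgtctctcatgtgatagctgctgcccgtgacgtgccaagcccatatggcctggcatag
Zbtb18 (chr1:177442101-177442350, plus strand): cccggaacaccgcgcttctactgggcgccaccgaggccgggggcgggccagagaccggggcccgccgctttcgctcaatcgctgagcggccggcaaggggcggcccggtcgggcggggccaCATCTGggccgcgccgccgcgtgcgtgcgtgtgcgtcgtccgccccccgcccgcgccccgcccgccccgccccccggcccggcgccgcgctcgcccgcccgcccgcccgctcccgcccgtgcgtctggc
Irx2 (chr13:72628570-72628819, plus strand): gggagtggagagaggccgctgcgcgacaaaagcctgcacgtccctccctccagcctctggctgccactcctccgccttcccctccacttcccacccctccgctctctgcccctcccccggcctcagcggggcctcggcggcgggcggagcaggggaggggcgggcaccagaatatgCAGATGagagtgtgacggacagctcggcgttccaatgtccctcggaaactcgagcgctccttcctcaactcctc
Aldh1a1 (chr19:20492333-20492582, plus strand): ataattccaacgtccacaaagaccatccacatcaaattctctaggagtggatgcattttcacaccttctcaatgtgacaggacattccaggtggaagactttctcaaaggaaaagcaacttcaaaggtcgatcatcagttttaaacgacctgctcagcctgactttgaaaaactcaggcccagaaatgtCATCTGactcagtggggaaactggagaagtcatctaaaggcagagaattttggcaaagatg
Neurod2 and Zbtb18 were higher in forebrain, and Irx2 and Aldh1a1 in midbrain. On either strand the word was present in 14 of 189 matched promoters of genes higher in forebrain (7.41%), in 30 of 292 of genes higher in midbrain (10.3%) and in 1249 of 12186 of all tested protein-coding genes (10.2%). The homeodomain word TAATTA, which is its own reverse complement, was present in 2.12%, 3.08% and 2.51% of the same promoters, and the GATA word AGATAA (read as TTATCT on the other strand) in 6.35%, 7.19% and 6.4%. These shares describe letters in a fixed window and name no binding site.

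Genes of ventral forebrain GABAergic neurons were also higher in forebrain, 9 of 19 tested members with none lower and a median of 0.99. Lhx6, a factor of interneurons from the medial ganglionic eminence, had 41.5 and 35.0 TPM at E16.5 and 33.4 and 34.0 TPM at P0 in forebrain, against 3.77 and 5.56 TPM at E16.5 and 8.49 and 3.50 TPM at P0 in midbrain. The groups did not overlap, and the difference was 2.61 ± 0.18 (SE, adjusted p = 7.8e-14). Dlx2, a homeodomain factor of all ventral telencephalic progenitors, had 15.9 to 38.4 TPM in forebrain and 2.37 to 6.43 TPM in midbrain and differed by 2.21. Lhx8, a factor of forebrain cholinergic neurons, differed by 2.15. Dlx1 differed by 2.11, and its other strand carries the antisense gene Dlx1as, at mean levels of 56.7 TPM in forebrain and 6.17 TPM in midbrain; the kit marks strand, and whether the counting used it is not given in the sources used here.

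Of 20 striatal projection neuron genes 7 were higher in forebrain and none lower, with a median of 0.45. Ppp1r1b, the dopamine-regulated phosphatase inhibitor of striatal spiny neurons, had 41.1 and 40.8 TPM at E16.5 and 39.0 and 75.1 TPM at P0 in forebrain, against 1.93 and 4.57 TPM at E16.5 and 10.8 and 3.08 TPM at P0 in midbrain, a difference of 3.18 ± 0.21 (SE, adjusted p = 8.3e-15). The forebrain replicate 2 at P0 was the highest library, and the lowest forebrain library still exceeded the highest midbrain library. The retinoid receptors Rxrg and Rarb differed by 1.26 and 1.17; Rarb was no longer called without forebrain P0 replicate 2, at 0.97.

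On the midbrain side the selector factors of tectal and midbrain GABAergic neurons were the largest group: 26 of 30 were higher in midbrain and none in forebrain, with a median of -2.79, and for all 26 the 4 midbrain libraries lay above the 4 forebrain libraries (10.5% of all genes did so). The same number was called at E16.5 alone, at P0 alone and with the library set as a term in the fit. Tfap2b, an AP-2 factor of tectal neurons (chr1:19208914-19238576, plus strand, mm10), had 1.75 and 3.14 TPM at E16.5 and 5.55 and 1.43 TPM at P0 in forebrain, against 115 and 162 TPM at E16.5 and 82.8 and 96.2 TPM at P0 in midbrain. The difference was -4.92 ± 0.24 (SE, adjusted p = 9.7e-18), the largest of the comparison. Pou4f2, a POU factor of tectal and retinal projection neurons, had 0.09 and 0.16 TPM at E16.5 and 0.11 and 0.05 TPM at P0 in forebrain, against 27.2 and 36.6 TPM at E16.5 and 23.6 and 25.3 TPM at P0 in midbrain. It was near 0 in every forebrain library and differed by -4.71 ± 0.11 (SE, adjusted p = 4.2e-26), which on the TPM + 1 scale understates the ratio of levels.

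Barhl1, Sox14 and Gata3 mark further midbrain classes: Barhl1 is a homeodomain factor of tectal and cerebellar neurons, Sox14 and Gata3 act in GABAergic neurons of the tectum and ventral midbrain. Their differences were -4.46, -3.93 and -3.90. In each of the 3, forebrain P0 replicate 1 was the highest forebrain library, with 2.85, 1.94 and 2.93 TPM, and midbrain levels were at least 20.8 TPM. Pax7, a paired box factor of dorsal midbrain, had 0.09 to 0.59 TPM in forebrain and 12.2 to 16.8 TPM in midbrain and differed by -3.64 ± 0.12 (SE, adjusted p = 4.2e-22). Irx2 and Mab21l2 differed by -3.82 and -3.82. Shox2, a homeodomain factor of diencephalic and tectal neurons, differed by -4.17. Hindbrain levels of the same genes stood between the regions or near midbrain: Tfap2b had 38.4 and 33.7 TPM at E16.5 and 30.8 and 31.6 TPM at P0 there, Barhl1 had 27.1 and 22.6 TPM at E16.5 and 36.5 and 47.7 TPM at P0, and Mab21l2, at 129 and 116 TPM at E16.5 and 70.1 and 99.5 TPM at P0, exceeded its midbrain level in every library.

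Otx2, which sets the caudal limit of forebrain and midbrain, was present in both regions and higher in midbrain. It had 14.51 and 15.2 TPM at E16.5 and 17.8 and 19.4 TPM at P0 in forebrain, against 99.8 and 90.1 TPM at E16.5 and 62.4 and 70.7 TPM at P0 in midbrain, a difference of -2.19 ± 0.16 (SE, adjusted p = 9.4e-14). 

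Genes of the isthmus still separated the regions at birth. Of 13 tested members 6 were higher in midbrain and none in forebrain over both stages, with a median of -0.63, and 5 were at P0. The list summed to 129 to 160 TPM in hindbrain, against 88.2 to 153 TPM in midbrain. En2, a homeodomain factor of midbrain and anterior hindbrain (chr5:28165694-28172166, plus strand), had 0.05 and 0.98 TPM at E16.5 and 0.24 and 0.08 TPM at P0 in forebrain, against 18.0 and 24.1 TPM at E16.5 and 14.3 and 15.04 TPM at P0 in midbrain. The difference was -3.84 ± 0.19 (SE, adjusted p = 6.1e-18), and forebrain E16.5 replicate 2 was the only forebrain library near 1 TPM. En1 differed by -3.74 and Pax5, a paired box factor induced by isthmic FGF, by -3.53. Cnpy1, a regulator of FGF signalling, had 1.09 to 5.33 TPM in forebrain and 17.6 to 66.7 TPM in midbrain and differed by -3.59. The remaining 7 members, among them Fgf8 and Wnt1, did not pass the test.

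Midbrain dopamine neuron genes were higher in midbrain for 15 of 20 members and higher in forebrain for none, with a median of -1.31. Of all genes, 2.46% were called higher in midbrain. The list does not single out midbrain: it summed to 418 to 477 TPM in hindbrain, against 339 to 365 TPM in midbrain. Slc6a3, the dopamine transporter (chr13:73536747-73578672, plus strand), had 0.19 and 0.15 TPM at E16.5 and 1.96 and 0.64 TPM at P0 in forebrain, against 7.81 and 10.96 TPM at E16.5 and 16.2 and 18.9 TPM at P0 in midbrain, a difference of -3.10 ± 0.14 (SE, adjusted p = 6.6e-19). Th, the rate-limiting enzyme of dopamine synthesis, had 3.26 and 2.71 TPM at E16.5 and 5.21 and 4.17 TPM at P0 in forebrain, against 12.9 and 13.9 TPM at E16.5 and 18.2 and 18.3 TPM at P0 in midbrain. Both genes were higher at P0 than at E16.5 in every midbrain library, and the difference for Th was -1.81 ± 0.16 (SE, adjusted p = 1.1e-11). Aldh1a1, a retinal dehydrogenase of ventral dopamine neurons, and Ddc, the decarboxylase that completes dopamine and serotonin synthesis, differed by -3.69 and -2.38. The floor plate factor Foxa2 and the dopamine neuron factor Pitx3 were low in midbrain, at 3.65 to 5.52 and 1.79 to 3.05 TPM, and differed by -2.03 and -1.58.

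Of the 10 serotonin and noradrenaline genes 6 were higher in midbrain. Tph2, the neuronal tryptophan hydroxylase, had 0.16 to 0.63 TPM in forebrain and 6.06 to 11.2 TPM in midbrain and differed by -2.79 ± 0.15 (SE, adjusted p = 9.4e-17). Slc6a4, the serotonin transporter, differed by -2.99; thalamic neurons also express it transiently, and it stands in the thalamic list too. Fev, the serotonin neuron selector, had 0 to 0.02 TPM in forebrain and 1.48 to 2.17 TPM in midbrain, with a difference of -1.498.

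**Figure D2:**
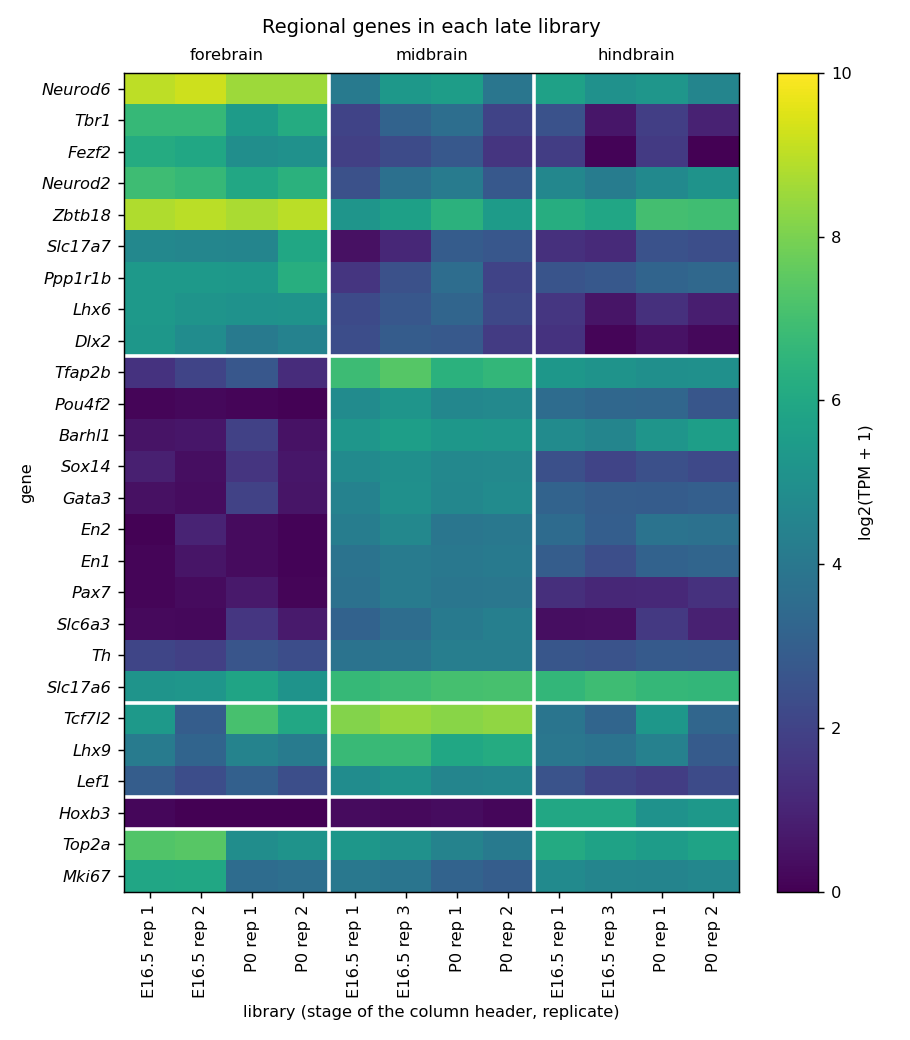
Level of 26 genes in each library as log2(TPM + 1), with genes in rows and libraries in columns; the 4 hindbrain columns are shown for reference. The upper block is bright in the 4 forebrain columns and the second in the 4 midbrain columns, Hoxb3 is near 0 in both regions, and Top2a and Mki67 are brightest in forebrain at E16.5.

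Thalamic genes were higher in the midbrain libraries, 7 of 15 with none higher in forebrain and a median of -0.79, and the size of the difference depended on the library. Tcf7l2 (chr19:55741820-55933654, plus strand) had 42.0 and 6.76 TPM at E16.5 and 135 and 63.4 TPM at P0 in forebrain and 285 and 342 TPM at E16.5 and 295 and 326 TPM at P0 in midbrain. All midbrain libraries exceeded all forebrain libraries, while the forebrain values spread widely, with replicate 1 above replicate 2 at each stage. The difference was -2.91 ± 0.36 (SE, adjusted p = 2.1e-08), and -4.10 at E16.5 against -1.73 at P0. Lhx9, a LIM factor of thalamus and dorsal midbrain, had 8.29 to 21.4 TPM in forebrain and 60.98 to 109.5 TPM in midbrain and differed by -2.42. Gbx2, a thalamic factor that also marks anterior hindbrain, had 2.12 to 14.2 TPM in forebrain and 7.56 to 21.2 TPM in midbrain; its regions overlapped and its average difference of -0.76 ± 0.21 did not pass the fold threshold.

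Of 19 hypothalamic genes 4 were higher in midbrain and none in forebrain, with a median of -0.40, against 2.46% and 1.76% of all genes. At E16.5 6 were higher in midbrain and 1 in forebrain (median -0.65), against 4.82% and 2.68% of all genes. At P0 none was called (median -0.12). From E16.5 to P0 the difference rose for 6, and for 2 with the library set as a term. All 4 midbrain libraries lay above all 4 forebrain libraries for 2 of the 19, near the 10.5% of all genes. Otp, a homeodomain factor of neuroendocrine neurons, had 1.79 to 7.89 TPM in forebrain and 9.11 to 12.9 TPM in midbrain and differed by -1.32. Cartpt, which encodes the CART peptides, differed by -1.74. Avp, vasopressin, had 3.49 and 0.66 TPM at E16.5 and 38.6 and 11.3 TPM at P0 in forebrain, against 8.66 and 9.58 TPM at E16.5 and 42.3 and 15.2 TPM at P0 in midbrain; replicate 1 was highest at P0 in both regions, the groups overlapped, and the difference of -1.08 ± 0.28 (SE, adjusted p = 0.0015) was lost under 6 of 20 alternatives, 3 of which left out forebrain E16.5 replicate 2, forebrain P0 replicate 2 or midbrain P0 replicate 1. Pmch, the precursor of melanin-concentrating hormone from the lateral hypothalamus, was chosen after its values were seen. It had 1.65 and 0.20 TPM at E16.5 and 31.0 and 4.12 TPM at P0 in forebrain, against 16.9 and 15 TPM at E16.5 and 16.6 and 11.3 TPM at P0 in midbrain, so the midbrain libraries carried it at similar levels while forebrain varied from 0.20 to 31.0 TPM. The highest hindbrain library held 0.10 TPM of Pmch.

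The vesicular glutamate transporters divided the regions. Slc17a7 (chr7:45163949-45176142, plus strand), the transporter of most cortical glutamatergic synapses, had 24.4 and 22.8 TPM at E16.5 and 22.3 and 60.9 TPM at P0 in forebrain, against 0.37 and 1.19 TPM at E16.5 and 6.42 and 5.63 TPM at P0 in midbrain, a difference of 3.13 ± 0.15 (SE, adjusted p = 8.0e-18). Slc17a6 (chr7:51622006-51671119, plus strand), the transporter of thalamic, midbrain and hindbrain neurons, had 35.3 and 37.1 TPM at E16.5 and 56.6 and 33.9 TPM at P0 in forebrain, against 103 and 113 TPM at E16.5 and 131 and 134 TPM at P0 in midbrain, a difference of -1.56 ± 0.11 (SE, adjusted p = 1.1e-13). Neither gene overlapped between regions, and Slc17a7 was higher at P0 than at E16.5 in both midbrain libraries. The transmitter list as a whole had 1 member higher in forebrain, Slc17a7, and 6 of 19 higher in midbrain, which included Slc17a8, the third vesicular glutamate transporter, at -1.25, Slc6a9, a glycine transporter, at -1.31, and Slc6a11, a GABA transporter of astrocytes, at -1.25. Without midbrain E16.5 replicate 3 the value of Slc6a11 was -0.98 and the call was lost.

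Receptor genes leaned to midbrain. Of 24 glutamate receptor genes 7 were higher in midbrain and none in forebrain (median -0.69). At E16.5 alone 11 were higher in midbrain (median -0.94), and at P0 alone 3 were (median -0.33). Of all genes, 2.46% were called higher in midbrain over both stages, 4.82% at E16.5 and 1.46% at P0. Grin2d, an NMDA receptor subunit of early and subcortical neurons, had 4.93 and 4.14 TPM at E16.5 and 23.01 and 14.53 TPM at P0 in forebrain, against 19.03 and 31.3 TPM at E16.5 and 36.9 and 43.9 TPM at P0 in midbrain. Each midbrain library at a stage exceeded both forebrain libraries of that stage, and the difference was -1.65 ± 0.11 (SE, adjusted p = 4.2e-14). The presynaptic metabotropic receptors Grm4 and Grm8 and the NMDA receptor subunit Grin3a differed by -1.44, -1.33 and -1.28. Gria2, the AMPA receptor subunit that limits calcium entry, had the opposite sign at 0.52 ± 0.14 and did not reach the fold threshold.

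Of 18 GABA-A and glycine receptor genes 4 were higher in midbrain and 1 in forebrain (median -0.50), against 2.46% and 1.76% of all genes. Gabrd, the delta subunit of extrasynaptic receptors, was the forebrain member, with 1.59 to 3.57 TPM in forebrain and 0.09 to 0.53 TPM in midbrain and a difference of 1.26. Gabrq, which encodes the theta subunit, differed by -1.204. Glra3 and Gabra3 differed by -1.12 and -1.05, and leaving out the libraries whose header and title differ ended both calls; that of Glra3 was also lost without midbrain E16.5 replicate 3. Of 31 sodium and potassium channel genes 3 were higher in midbrain and none in forebrain (median -0.56), against the same shares of all genes. Kcnc4, a potassium channel gene, had 2.83 to 13.2 TPM in forebrain and 12.6 to 35.4 TPM in midbrain. Its difference was -1.83 ± 0.11 (SE, limma adjusted p = 7.3e-16). Kcnd2 differed by -1.10 and Hcn2 by -1.003, and these calls were lost under 2 and 9 of 20 alternatives. Both were lost without midbrain E16.5 replicate 3, and Hcn2 also without forebrain E16.5 replicate 2, forebrain P0 replicate 1 or midbrain P0 replicate 2.

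Among 17 neurofilament and axonal cytoskeleton genes 3 were higher in midbrain (median -0.29), against 2.46% of all genes. Nefl, the light neurofilament subunit, had 55.9 and 42.6 TPM at E16.5 and 122 and 95.1 TPM at P0 in forebrain, against 175 and 209 TPM at E16.5 and 200.4 and 218 TPM at P0 in midbrain, a difference of -1.45 ± 0.11 (SE, adjusted p = 3.6e-13). In forebrain Nefl was higher at P0 than at E16.5, and the P0 libraries were below all midbrain libraries. Nefh and Prph, the heavy subunit and peripherin, differed by -1.67 and -1.69, and hindbrain levels of all 3 were higher again, at 71.2 TPM on average for Prph. Of 33 synapse and CaM kinase II genes 5 were higher in midbrain and none in forebrain (median -0.39), against the same 2.46%. They were led by the vesicle protein Vamp1 at -1.25 and the neuronal pentraxin Nptx2 at -1.24. All 4 midbrain libraries lay above all 4 forebrain libraries for 2 of the 33, against 10.5% of all genes.

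Ephrins and Eph receptors, which guide axons by contact, split evenly: 3 of 22 were higher in each region (median -0.10). Efnb2, Epha3 and Efna4 were the forebrain members, at 1.64, 1.51 and 1.39. Epha3 had 48.6 and 55.0 TPM at E16.5 and 14.3 and 14.8 TPM at P0 in forebrain, lower at P0, and 12.7 and 11.4 TPM at E16.5 and 8.32 and 5.47 TPM at P0 in midbrain. Epha10, Epha8 and Efna5 were the midbrain members, at -2.01, -1.23 and -1.14; Efna5 is an ephrin of the tectal gradient that sorts retinal axons. Neuropeptide genes also split, with 4 of 29 higher in each region. Nts, the neurotensin precursor, had 38.8 and 41.9 TPM at E16.5 and 112 and 96.7 TPM at P0 in forebrain, against 14.2 and 16.6 TPM at E16.5 and 29.2 and 23.1 TPM at P0 in midbrain and differed by 1.65 ± 0.19 (SE, adjusted p = 8.9e-09). Its receptor Ntsr1, a gene of deep-layer corticothalamic neurons, differed by 1.42, and Pnoc, the nociceptin precursor, was higher in midbrain at -1.42.

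**Figure D3:**
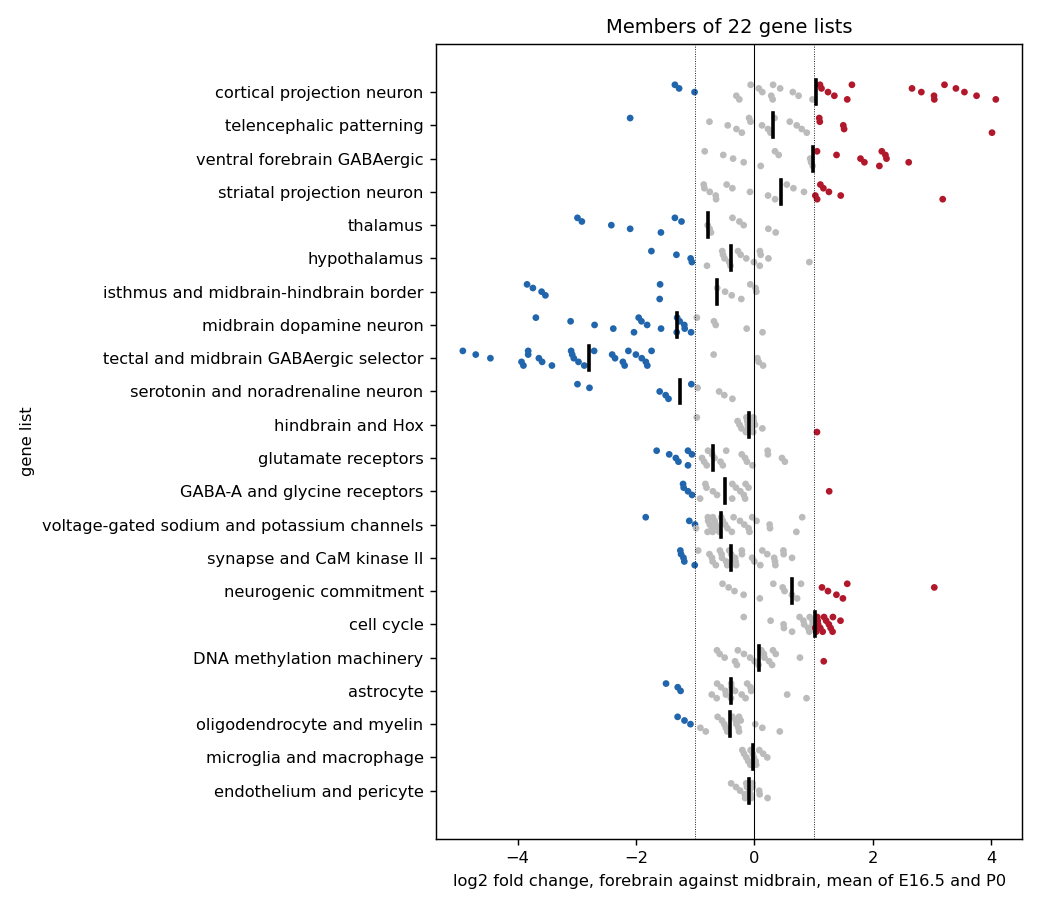
Log2 fold change of each member of 22 gene lists, forebrain against midbrain over both stages; red and blue points passed the test as higher or lower in forebrain, black bars are list medians, and dotted lines mark a log2 fold change of 1 in either direction. The tectal and midbrain GABAergic selector list has the lowest median, -2.79, and the cortical projection neuron and cell cycle lists the highest, 1.05 and 1.03.

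Cell cycle genes separated the regions at E16.5. Over both stages the test called 14 of 27 cell cycle genes, all higher in forebrain, with a median of 1.03. At E16.5, where 7.5% of all genes were called (2.68% higher and 4.82% lower in forebrain), 23 of 27 were higher and the median was 1.68. At P0, where 3.03% were called (1.56% higher and 1.46% lower), limma called none and the median was 0.38. Its unadjusted p at P0 was under 0.05 for 20 of the 27, against 7204 of all 15725 genes. The average count fell to 9 without the libraries whose header and title differ and rose to 19 with the library set as a term. Top2a, the topoisomerase of replicating chromosomes, had 156 and 169 TPM at E16.5 and 29.3 and 34.1 TPM at P0 in forebrain, against 38.5 and 32.0 TPM at E16.5 and 20.9 and 16.6 TPM at P0 in midbrain. At E16.5 both forebrain libraries were far above both midbrain libraries, and at P0 they stood nearer but still above. Mki67, a protein of dividing nuclei, had 59.0 and 61.8 TPM at E16.5 and 10.53 and 12 TPM at P0 in forebrain, against 15.2 and 13.8 TPM at E16.5 and 8.0 and 6.68 TPM at P0 in midbrain, with differences of 1.99 at E16.5 and 0.53 at P0.

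The change between stages was tested as an interaction, in which 471 genes passed (3%), 163 of them with a difference that fell from E16.5 to P0 (1.04%) and 308 with one that rose (1.96%). Rises made up 65.4% of these calls, 55.0% after median-of-ratios scaling and 50.9% after quantile normalization. Of the 27 cell cycle genes 17 fell and none rose, with a median change of -1.09 against 0.05 over all genes. With the library set as a term 10 fell, with a median of -0.80; in hindbrain at P0 the median difference between the libraries of both sets was 0.23 for these genes. For Top2a the change was -1.44 ± 0.17 (SE, adjusted p = 3.5e-07).

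Neurogenic commitment genes were higher in forebrain for 6 of 17 members and lower for none (median 0.63). Neurog2, a proneural factor of cortical progenitors, had 46.5 and 44.3 TPM at E16.5 and 4.56 and 3.54 TPM at P0 in forebrain, against 12.01 and 8.05 TPM at E16.5 and 1.97 and 1.45 TPM at P0 in midbrain. Forebrain exceeded midbrain at both stages and both regions held far less at P0, so the regions overlapped across stages; the difference was 1.497 ± 0.17 (SE, adjusted p = 2.2e-09). Neurod1 and Insm1, factors of cells leaving the cycle, differed by 1.57 and 1.24. None of 19 radial glia genes passed limma's test in the average, and their median was 0.12. The unadjusted p was under 0.05 for 8 of the 19, against 9053 of all 15725 genes.

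Of 19 genes of the DNA methylation machinery, the subject of the series, 1 passed the test, near the share of 4.22% over all genes. Uhrf1, which brings the maintenance methyltransferase to replicated DNA, had 52.3 and 42.2 TPM at E16.5 and 11.8 and 13.47 TPM at P0 in forebrain, against 14.1 and 15.4 TPM at E16.5 and 8.46 and 6.06 TPM at P0 in midbrain, and its difference was 1.17 ± 0.10 (SE, adjusted p = 1.6e-11). Like the cell cycle genes it was highest in forebrain at E16.5. Dnmt1, the maintenance methyltransferase, had 55.1 to 81.5 TPM in forebrain and 53.3 to 82.3 TPM in midbrain, and its difference of 0.07 ± 0.08 (SE, adjusted p = 0.5) did not pass the test. Dnmt3a, a de novo methyltransferase, had 42.9 to 53.8 TPM in forebrain and 65.7 to 98.6 TPM in midbrain and a difference of -0.63 ± 0.09, under the fold threshold.

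Astrocyte and oligodendrocyte genes leaned to midbrain, with 3 of 20 higher there in each list, none higher in forebrain and medians of -0.39 and -0.41. Of all genes, 2.46% were called higher in midbrain. All 4 midbrain libraries lay above all 4 forebrain libraries for 1 and 3 members, against 10.5% of all genes. At P0 alone, and without the libraries whose header and title differ, 1 astrocyte gene was higher in forebrain and 2 in midbrain. Aqp4, the astrocyte water channel, had 0.97 and 1.46 TPM at E16.5 and 11.8 and 13.9 TPM at P0 in forebrain, against 3.72 and 9.48 TPM at E16.5 and 32.2 and 34.4 TPM at P0 in midbrain. Levels were higher at P0 than at E16.5 in both regions and higher in midbrain at each stage, with a difference of -1.49 ± 0.16 (SE, adjusted p = 1.6e-09). Olig1, a factor of the oligodendrocyte lineage, had 11.8 to 57.2 TPM in forebrain and 35.1 to 90.9 TPM in midbrain and differed by -1.18, a call that was lost with the library set as a term (-0.91). Mbp, myelin basic protein, had 8.97 to 19.8 TPM in forebrain and 15.6 to 21.4 TPM in midbrain, and its difference of -0.48 ± 0.08 was under the fold threshold. Microglia and endothelium genes passed the test in no case, 0 of 13 and 0 of 15 by limma, with medians of -0.03 and -0.08. The unadjusted p was under 0.05 for 1 and 3 of them, against 9053 of all 15725 genes. Of 13 fibroblast and meninges genes 1 was higher in midbrain, Ptgds, a prostaglandin D synthase, at -1.15; with the library set as a term it stood at -0.48 and none of the 13 was called. The median of this list differed by 1.02 between the hindbrain P0 libraries of both sets.

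Of 10 choroid plexus and ependyma genes none was called higher in forebrain at E16.5 and 4 were at P0, against 2.68% and 1.56% of all genes. At each stage 1 member, Otx2, was called lower. From E16.5 to P0 the difference rose for 5 of the 10, with a median change of 0.99. With the library set as a term 0 rose, with a median of 1.10. Ttr, the transthyretin carrier that choroid plexus secretes, had 755 and 1108 TPM at E16.5 and 1768 and 2334 TPM at P0 in forebrain, against 1312 and 558 TPM at E16.5 and 329 and 79.7 TPM at P0 in midbrain. The regions overlapped at E16.5 and were separate at P0: the difference was 0.10 at E16.5 and 3.64 at P0. Aqp1 and Clic6 had the same order, with 0.63 and 0.45 at E16.5 and 2.23 and 2.12 at P0. Their calls over both stages were lost without the libraries whose header and title differ. The summed choroid list ranged from 819 to 2465 TPM in forebrain and from 177 to 1486 TPM in midbrain. Among 15 immediate early genes 3 were higher in forebrain and none lower (median 0.33). Nr4a3, a nuclear receptor induced by activity, had 12 to 17.1 TPM in forebrain and 2.32 to 4.26 TPM in midbrain and differed by 2.04 ± 0.11 (SE, adjusted p = 2.3e-16).

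The regional differences were larger at E16.5 than at P0 for most called genes. At E16.5 1180 genes were called and at P0 476. Of the 276 genes higher in forebrain 128 were called at both stages, 115 at E16.5 alone and 33 at P0 alone, and the difference was smaller at P0 for 205. Of the 387 higher in midbrain 186 were called at both, 191 at E16.5 alone and 10 at P0 alone, and the difference was smaller at P0 for 355. Median log2 fold changes were 1.60 and 1.11 on the forebrain side and -1.56 and -1.01 on the midbrain side, at E16.5 and P0. Being called at 1 stage alone does not show that the stages differ; the interaction gives that test. Thalamic genes had 6 of 15 members with a positive interaction and none negative, which for genes higher in midbrain is a smaller difference at P0; Tcf7l2 changed by 2.37 ± 0.72 (SE, adjusted p = 0.017). With the library set as a term 1 of the 15 passed, while the list's median change was 0.60 against 0.78 without the term. Of the 30 tectal and midbrain GABAergic selector genes 9 rose, and 6 rose and 1 fell with that term; Tal2, a factor that commits midbrain progenitors to a GABAergic fate, had 14.4 and 7.11 TPM at E16.5 and 0.98 and 0.95 TPM at P0 and changed by 2.71.

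**Figure D4:**
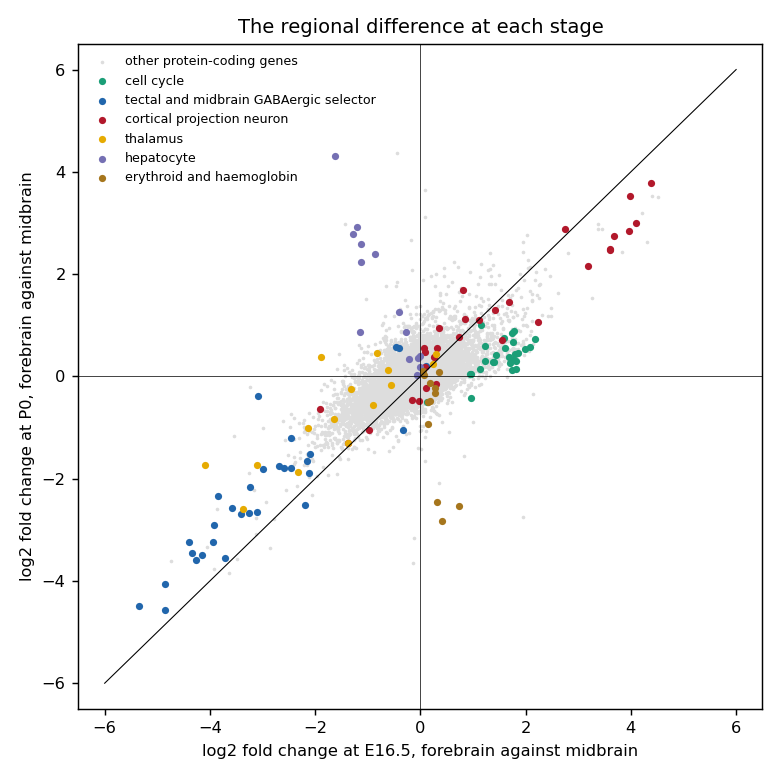
Log2 fold change of each protein-coding gene, forebrain against midbrain, at E16.5 (x axis) and P0 (y axis), with 6 gene lists in colour; the line marks equal differences. Cell cycle genes lie well right of the line, with medians of 1.68 and 0.38, and most tectal selector genes lie in the lower left at both stages.

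The largest interactions concerned genes of blood and liver and predicted genes rather than regional factors. Alb, serum albumin, had 18.1 and 0.18 TPM at E16.5 and 14.2 and 28.4 TPM at P0 in forebrain, against 11.8 and 15.7 TPM at E16.5 and 0.05 and 0.07 TPM at P0 in midbrain. The 2 forebrain libraries at E16.5 differed widely from each other, and 7 of 14 hepatocyte genes passed as higher in forebrain at P0 (1.56% of all genes did). Fgg, a fibrinogen chain, had 0.01 to 6.23 TPM in forebrain and 0.01 to 7.27 TPM in midbrain. Hbb-y, an embryonic globin, had 0.74 to 11.3 TPM in forebrain and 3.69 to 13.9 TPM in midbrain, and the hindbrain P0 library of the midbrain set was above its partner by 2.06 on the log2 scale. Gm9844, a predicted gene, stood at 88.2 and 87.6 TPM in the midbrain P0 libraries and at most 12.01 TPM in the other 6, and the same hindbrain difference was 2.97. Globin genes, Serpina1 genes and some predicted genes have near-identical copies, between which reads can be split. Whether this played a part in these values was not tested.

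Against mid-gestation, E13.5 and E14.5, the regional difference changed for 178 genes (1.13%), 114 with a rise (0.725%) and 64 with a fall (0.407%). The midbrain P0 libraries are the only ones of their library set in this contrast. With E16.5 alone as the late stage, within a single set, 157 genes were called, 91 of them among the 178. Rises then made up 50.3% of the calls, against 64.0%. With the library set as a term 191 were called, 135 of them among the 178, with 68.1% rises. Of the genes called late, 153 of the 276 higher in forebrain and 252 of the 387 higher in midbrain had also been called at E13.5 and E14.5 (2.23% and 3.09% of all genes were called higher and lower then, 5.32% in all). The difference of Zbtb18 rose by 1.28; it was already higher in forebrain at mid-gestation, at 1.89. Crym, a thyroid hormone binding protein of cortical neurons, reversed: its regional difference was -1.44 at mid-gestation and 1.25 late, as forebrain went from 5.40 to 9.37 TPM at mid-gestation to 34.8 and 32.1 TPM at E16.5 and 41.4 and 66.5 TPM at P0, while midbrain stood at 19.9 and 17.6 TPM at E16.5 and 17.6 and 13.8 TPM at P0. The interaction for Crym was 2.68 ± 0.25 (SE, adjusted p = 1.4e-09).

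Cyp26b1, which degrades retinoic acid, had a smaller midbrain excess late than at mid-gestation. It had 1.57 to 4.27 TPM in forebrain and 17.5 to 43.0 TPM in midbrain at mid-gestation and late 7.02 to 8.87 TPM in forebrain and 9.51 to 14.7 TPM in midbrain, an interaction of 2.63 ± 0.23 (SE, adjusted p = 6.7e-10). Tal2 had 56.9 to 82.9 TPM in midbrain at mid-gestation and late 0.95 to 14.4 TPM, and its difference went from -4.11 to -1.74. With E16.5 alone as the late stage this change was 1.02 and its call was lost. Aldh1a1 went the other way: midbrain levels of 1.0 to 10.03 TPM were followed by 25.1 and 25.9 TPM at E16.5 and 35.9 and 35.9 TPM at P0, and the interaction was -1.93 ± 0.21 (SE, adjusted p = 3.1e-08). Aldoc, the brain aldolase of radial glia and astrocytes, was higher in forebrain at mid-gestation, at 1.57, and late had 119.8 to 172 TPM in forebrain and 90.2 to 217 TPM in midbrain with a difference of -0.05. Lhx8 and Shox2, both called late, had interactions of -1.93 and -1.52; for Lhx8 this is a smaller forebrain excess, and for Shox2 a larger midbrain excess.

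**Figure D5:**
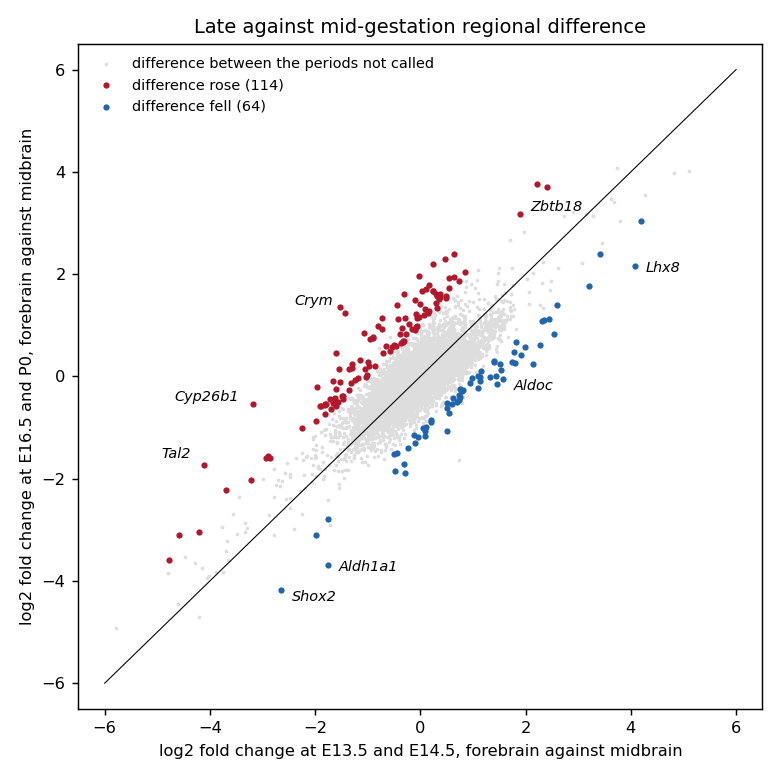
Log2 fold change, forebrain against midbrain, at E13.5 and E14.5 (x axis) and at E16.5 and P0 (y axis), for each protein-coding gene; red and blue points are the 114 genes whose difference rose and the 64 whose difference fell, and the line marks equal differences. Crym lies above the horizontal zero and left of the vertical one, and Tal2 and Cyp26b1 lie left of and above the line.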

How the data were processed

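RNA was sequenced from fetal mouse tissue; per the labels' protocols, a stranded mRNA kit was used on total RNA. The authors deposited TPM values, 1 per gene and library, in a single table. STAR 2.4.0k, RSEM 1.2.23 and the build mm10 are named per the submitters' processing notes; their roles and the annotation were not given in the sources used here. Identifiers were matched to GENCODE M21 (42462 of 43346 had a symbol), promoters to RefSeq.

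Values were analysed as log2(TPM + 1), which understates the change of low genes. A gene was kept when 2 or more of the 61 libraries reached 1 TPM. limma 3.58.1 (R 4.3.3) fitted 1 mean per tissue and stage over all 61 libraries, which gave 30 residual degrees of freedom for groups of 2, with a mean-variance trend. Every adjusted p is from limma, two-sided, with Benjamini-Hochberg adjustment over all 18655 genes kept. The fit was tested on simulated data. Members and the 39 gene lists, some of which share genes, were chosen with earlier results of these data known. Named genes were the 10 highest and 10 lowest called without overlap and at 5 TPM or more, up to 4 called members per list and direction and up to 2 others, the 6 largest interactions in each direction, and 16 genes fixed by name; some of these are not reported here. Of 124 named genes 40 overlap a gene on the other strand, and it is unknown here whether counting used strand. Alternatives varied scaling, pseudocount, filter, fit, stage source, block and libraries; a term for the library set and E16.5 alone were added after seeing the data.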

Additional observations from a re-analysis of the deposited data

Results flagged for a closer look

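The regional difference differed between stages or periods for the following genes, by the interaction tests; these are the 6 largest effects in each direction for each test. From E16.5 to P0 the log2 difference fell for Gm3055 (-4.71), Gm9844 (-3.52), Hbb-y (-3.26), Hba-x (-3.23), Hbb-bh1 (-2.77) and Gm10031 (-2.49). It rose for Alb (5.94), Gm15446 (4.81), Serpina1e (4.41), Ahsg (4.13), Fgg (4.08) and Serpina1b (3.71). With the library set as a term, 3 of these 12 still passed: Serpina1e at 4.40, Ahsg at 4.14 and Fgg at 4.08. Between the hindbrain P0 libraries of both sets the log2 difference was 2.85 for Hba-x, 2.49 for Hbb-bh1, 2.97 for Gm9844 and -4.12 for Gm15446, and -0.04 for Alb.

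From E13.5 and E14.5 to the late period the difference fell for Aldh1a1 (-1.93), Lhx8 (-1.93), Fezf1 (-1.91), Etl4 (-1.71), Shisa2 (-1.66) and Aldoc (-1.63). It rose for Alb (2.87), Crym (2.68), Cyp26b1 (2.63), Tal2 (2.37), Klhl35 (2.05) and Gm15446 (1.99). Of these 12, 9 passed under all 28 alternatives run. Fezf1, a factor of ventral forebrain and hypothalamus, had 2.58 to 6.27 TPM in forebrain and 3.33 to 3.79 TPM in midbrain late, against 9.92 to 15.02 TPM in forebrain at mid-gestation. Alb lost its call under 17 of the 28 alternatives.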

How the results depend on the processing

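The count of genes called over both stages stayed between 585 and 761 when single libraries were left out, and between 546 and 671 under the other scalings, filters and fits; a pseudocount of 0.1 gave 1119 and E16.5 alone 1180. A pseudocount of 0.1 also gave 1848 genes at E16.5, 856 at P0, 830 for the change from E16.5 to P0 and 389 against mid-gestation. Leaving out single libraries gave 988 to 1534 at E16.5, 403 to 596 at P0, 413 to 630 for the change from E16.5 to P0 and 171 to 196 against mid-gestation. The change from E16.5 to P0 depended most on the processing: 207 genes with only these libraries in the fit, 918 with the stage of the sample title and 239 with the library set as a term, of which 207, 289 and 173 were among the 471. Its share of rises was 65.4%, against 55.0% after median-of-ratios scaling and 50.9% after quantile normalization, and rises became the minority with only these libraries in the fit (48.8%) and with the stage of the title (47.1%). The cause was not tested. Of 117 genes named as called over both stages 98 passed under every alternative run and none reversed. Signs changed for Alb over both stages (-1.62 at E16.5 alone) and against mid-gestation (-0.10 at E16.5 alone), Dnmt1 (-0.03 to 0.171 as single libraries were left out, negative without midbrain E16.5 replicate 1), Gm10031 (0.053 with the stage of the title) and Gm15446 against mid-gestation (-0.069 with the library set as a term and -0.42 at E16.5 alone).

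Replicate numbers do not pair the libraries: deviations of same-numbered forebrain and midbrain libraries correlated at -0.22 at E16.5, -0.09 at P0 and -0.01 to 0.16 at the other stages. With a replicate block 598 genes were called over both stages, 1007 at E16.5, 476 at P0, 370 for the change from E16.5 to P0 and 171 against mid-gestation. TPM values keep no depth, so how far depth limits low genes is unknown.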
